A study of Mus musculus with 15 samples.

Results

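The Dlk1-Dio3 domain is a cluster of imprinted genes on distal mouse chromosome 12. Its genes were followed in embryonic germ cells (EGC), which are pluripotent lines derived from primordial germ cells, and in embryonic stem cells (ESC). The genes were chosen by symbol from knowledge of the domain, and they were Meg3, Rian, Mirg, Dlk1, Rtl1, Dio3 and the flanking gene Begain. Of these 7 genes, 5 had a row in the deposited table of 34372 genes, and Rian and Mirg are not analysed here. Polyadenylated RNA was sequenced from 9 EGC and 6 ESC libraries. Per the labels, all cells were picked in medium with 2i and LIF, replated on mouse embryonic fibroblast feeders in serum with LIF, and collected at passage 6 as SSEA1-positive cells by sorting, SSEA1 being a surface antigen of pluripotent mouse cells. The labels name no strain, transgene or engineered allele. Stage and karyotype came from the header of the table, which names 6 kinds of library. Libraries EGC 1, 2 and 3 were E12.5 XY, while EGC 4, 5 and 6 were E11.5 XY. EGC 7 and EGC 9 were E11.5 XX and EGC 8 was E11.5 XO. ESC 1, 2 and 3 were XX and ESC 4, 5 and 6 were XY. Neither source says whether libraries under 1 label are separate lines or clones of 1 line, so p-values measure the spread between these libraries, which may be technical.

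In mouse, the long noncoding RNAs Meg3, Rian and Mirg are expressed from the maternal copy of the domain and host many microRNAs and small nucleolar RNAs, while Dlk1, Rtl1 and Dio3 are expressed from the paternal copy. A control region between Dlk1 and Meg3 carries DNA methylation on the paternal copy. It keeps the noncoding RNAs silent there, and the zinc finger protein ZFP57 binds methylated copies of its recognition sequence to protect imprints in embryonic stem cells. The level of Meg3 has been used to grade mouse pluripotent lines, since some lines lose the noncoding RNAs in culture. The values here are total levels per gene as TPM, each gene's share of all transcripts corrected for its length, and do not tell the parental copies apart.

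On GRCm38 with GENCODE release M21, Begain lay at 109032187 to 109068217 of chromosome 12 on the minus strand and Dlk1 at 109452823 to 109463336 on the plus strand. Meg3 followed at 109541001 to 109571726 on the plus strand, Rtl1 at 109589193 to 109600330 on the minus strand and Dio3 at 110279068 to 110281097 on the plus strand. The 250 bases before the first RefSeq start of Meg3 and before the RefSeq start of Dlk1 are given. They were chosen because these neighbours differed between the same groups in opposite directions. Sequences are from RefSeq on GRCm38.p6, run 5′ to 3′ on the plus strand, and have CpG dinucleotides, the sites of DNA methylation, in capitals.
Meg3 upstream window, chr12:109540746-109540995: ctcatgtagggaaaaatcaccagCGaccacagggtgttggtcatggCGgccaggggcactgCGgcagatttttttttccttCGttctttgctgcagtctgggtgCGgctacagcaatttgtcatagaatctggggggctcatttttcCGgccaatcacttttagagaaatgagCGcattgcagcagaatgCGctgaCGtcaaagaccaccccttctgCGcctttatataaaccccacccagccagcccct
Dlk1 upstream window, chr12:109452573-109452822: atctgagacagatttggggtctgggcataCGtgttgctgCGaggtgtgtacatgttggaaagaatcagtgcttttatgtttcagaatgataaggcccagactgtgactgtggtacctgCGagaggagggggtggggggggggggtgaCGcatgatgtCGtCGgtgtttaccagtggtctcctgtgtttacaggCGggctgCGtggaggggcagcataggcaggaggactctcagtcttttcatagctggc
The Meg3 window held 10 CpGs with 52.4% G and C, and the Dlk1 window held 8 CpGs with 54.8%. The median over 32851 such windows was 6 CpGs, with 52.4% G and C. The hexamer TGCCGC, to which ZFP57 binds when it is methylated, was searched on both strands, and any match overlaps a CpG. It occurred 1 time in the Meg3 window and 0 times in the Dlk1 window, and 8.7% of all windows held it. A window before a later RefSeq start of Meg3, chr12:109545148-109545397, held 0 CpGs and 0 matches. A match of letters does not show binding, and methylation was not measured in this table.

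The library under the XO label stood apart on this chromosome. Its 422 other tested chromosome 12 genes had a median of log2(TPM + 1) that was 0.40 above their mean over all libraries, against -0.12 to 0.06 in the other 14 libraries. Since it is 1 library, its values are given as a description. ESC 3 had a like shift of 0.44 on chromosome 13, which holds none of the domain's genes. Each column summed to 1000000, and 12498 to 13041 genes were at 1 TPM or more. The table gives no read counts, so the depth behind a value is unknown and the spread between libraries is the error given.

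Meg3, a maternally expressed noncoding RNA, was the most abundant gene of the domain and was graded across the labels over a 13.2-fold range. It had 625.4, 755.6 and 615.3 TPM in the E11.5 XY EGC libraries (665.4 ± 78.2, SD, n = 3), and 665.0 TPM in the XO library. It had 435.7, 537.1 and 483.2 TPM in E12.5 XY EGC (485.3 ± 50.7, n = 3). Thus the libraries of the E11.5 XY label, with the XO library among them, lay above all E12.5 libraries. Meg3 had 197.2 and 193.8 TPM in XX EGC (195.5 ± 2.40, n = 2) and 198.9, 182.3 and 213.7 TPM in XY ESC (198.3 ± 15.7, n = 3). These neighbours in the order overlapped. The lowest values were those of XX ESC, at 53.9, 50.8 and 46.5 TPM (50.4 ± 3.67, n = 3), which lay below every other library.

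**Figure D1:**
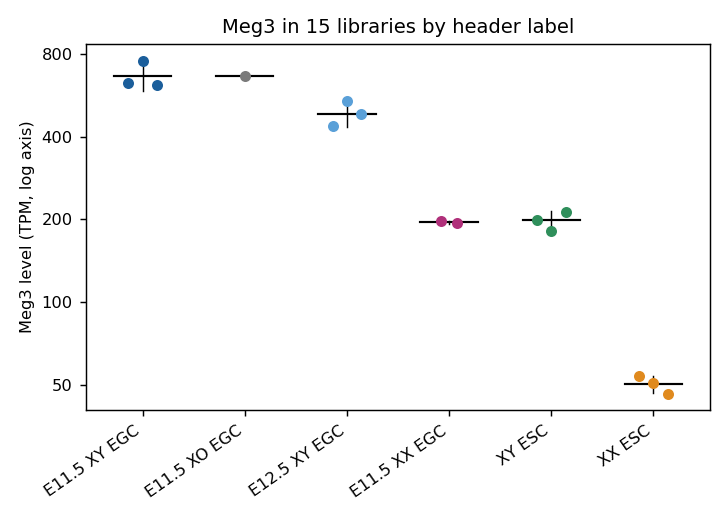
Meg3 level in TPM on a log axis (vertical) for the 6 header labels (horizontal). Points are libraries, horizontal lines are means and vertical lines are ± 1 SD, and the XO label has 1 library. The XX ESC libraries lie between 46.5 and 53.9 TPM, the XX EGC and XY ESC libraries between 182.3 and 213.7 TPM, and the other EGC libraries at 435.7 TPM or above.

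Even at its lowest, Meg3 was among the abundant noncoding RNAs. Among 3132 rows annotated as long noncoding RNA it ranked between 1 (EGC 8) and 18 (ESC 2). Among all rows it ranked between 176 (EGC 5) and 3088 (ESC 3). Among 54 imprinted genes looked up in the table, its mean ranked 1 in E11.5 XY, E12.5 XY and XO EGC, 2 in XX EGC, 3 in XY ESC and 11 in XX ESC. The gene with the highest mean in the last 3 labels was Cd81, a membrane tetraspanin, at 332 TPM in XX EGC, 343 TPM in XY ESC and 361 TPM in XX ESC. As a share of all transcripts Meg3 took 0.0665% in E11.5 XY EGC on average and 0.00504% in XX ESC.

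Dlk1, a paternally expressed transmembrane protein of the Notch ligand family, had low levels, with its highest values in XX EGC. It had 8.58 and 5.77 TPM in XX EGC (7.18 ± 1.99, SD, n = 2), above every other library. The E11.5 XY EGC libraries followed with 4.63, 3.57 and 2.54 TPM (3.58 ± 1.05, n = 3), beside 3.67 TPM in the XO library, and XX ESC had 3.74, 4.08 and 3.19 TPM (3.67 ± 0.449, n = 3). These 3 labels overlapped. Dlk1 had 2.23, 2.22 and 3.03 TPM in E12.5 XY EGC (2.50 ± 0.465, n = 3), a range that overlapped that of E11.5 XY EGC. XY ESC was lowest, with 1.31, 0.694 and 1.79 TPM (1.26 ± 0.548, n = 3), below every library of the other labels.

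Rtl1, a retrotransposon-derived gene known for its role in the placenta, was low throughout and reached 1 TPM in no library. It had 0.377, 0.568 and 0.468 TPM in E12.5 XY EGC and 0.497 TPM in the XO library. It had 0.304, 0.271 and 0.283 TPM in E11.5 XY EGC, and 0.193, 0.207 and 0.223 TPM in XY ESC. The lowest values were 0.146 and 0.150 TPM in XX EGC and 0.0988, 0.0499 and 0.0812 TPM in XX ESC. As for Meg3, the means of XY ESC, XX EGC and XX ESC followed those of the other EGC labels in that order. Among neighbours in the order, only XO and E12.5 XY EGC overlapped. Over the 15 libraries, the Pearson r of log2(TPM + 1) between Rtl1 and Meg3 was 0.83. Libraries of 1 label may share a source and are not known to be independent. Rtl1 was below the filter of 1 TPM and was not in the main tests.

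Rtl1 also has maternally expressed RNA on the opposite strand, which carries microRNAs that can pair with the Rtl1 transcript. The library kit named in the labels does not mark strand, so reads from Rtl1 and from this antisense RNA cannot be told apart. RefSeq places 6 microRNA hairpins on the strand opposite to Rtl1 within the gene. One mature arm of each of 4 hairpins is given to show what lies in the overlap, with the seed (bases 2 to 8, which pair with targets) in capitals, and no seed was shared between them.
mmu-miR-431-5p, chr12:109590459-109590479: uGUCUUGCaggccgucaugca
mmu-miR-433-3p, chr12:109591781-109591802: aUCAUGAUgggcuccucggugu
mmu-miR-127-3p, chr12:109592888-109592909: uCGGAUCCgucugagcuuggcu
mmu-miR-136-5p, chr12:109595331-109595352: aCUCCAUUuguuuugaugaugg
All 6 hairpins had rows in the table, listed at 0 in every library. The same held for all 50 microRNA rows and 3 small nucleolar RNA rows of the domain, and the levels of these small RNAs cannot be read from polyadenylated RNA libraries.

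Dio3, a paternally expressed enzyme that inactivates thyroid hormones, did not follow the order of Meg3 or of Dlk1. It was highest in E11.5 XY EGC, at 2.43, 2.93 and 2.65 TPM (2.67 ± 0.249, SD, n = 3). It had 2.33, 1.46 and 2.07 TPM in XX ESC (1.95 ± 0.444, n = 3), below the E11.5 XY EGC range, and 1.91 TPM in the XO library. XX EGC had 1.43 and 1.14 TPM (1.28 ± 0.209, n = 2). Dio3 stayed under 1 TPM in the other labels, with 0.871, 0.847 and 0.738 TPM in E12.5 XY EGC (0.819 ± 0.0709, n = 3) and 0.407, 0.741 and 0.623 TPM in XY ESC (0.590 ± 0.169, n = 3), which overlapped.

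Begain, which lies upstream of Dlk1 and encodes a protein that binds the synaptic scaffold PSD-95, varied least across the labels. Its highest value was 4.65 TPM, in the XO library. It had 2.54, 3.64 and 2.76 TPM in E11.5 XY EGC (2.98 ± 0.583, SD, n = 3) and 2.49 and 2.31 TPM in XX EGC (2.40 ± 0.129, n = 2). XX ESC had 2.32, 2.23 and 1.36 TPM (1.97 ± 0.532, n = 3), E12.5 XY EGC had 1.81, 2.07 and 1.63 TPM (1.84 ± 0.223, n = 3) and XY ESC had 1.39, 1.48 and 1.86 TPM (1.58 ± 0.251, n = 3). The last 3 labels overlapped each other.

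**Figure D2:**
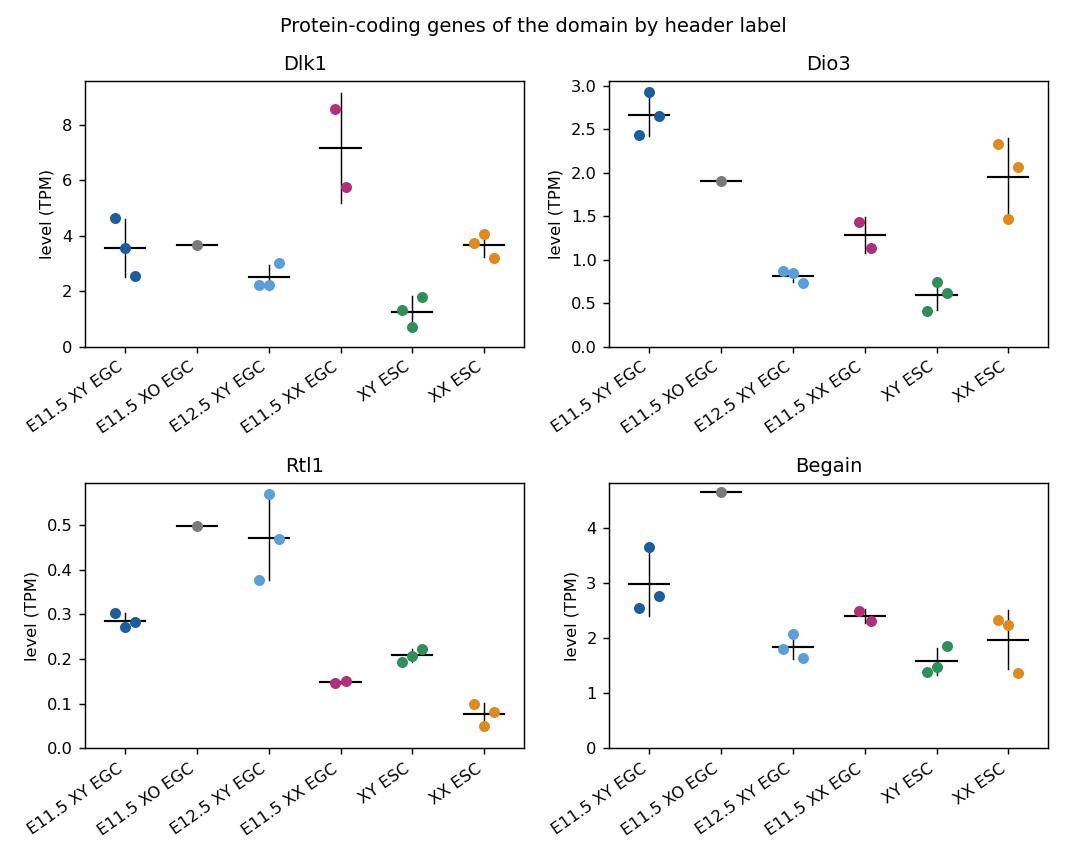
Levels of Dlk1, Dio3, Rtl1 and Begain in TPM on linear axes from 0 (vertical) for the 6 header labels (horizontal). Points are libraries, horizontal lines are means and vertical lines are ± 1 SD. Dlk1 is highest in XX EGC, Dio3 in E11.5 XY EGC, and Begain in the XO library, while Rtl1 stays under 1 TPM throughout.

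The first comparison set all EGC against all ESC, the grouping in the sample labels, and asks whether the origin of a line leaves a difference in the domain. Meg3 averaged 501 ± 198 TPM in EGC (SD, n = 9) and 124 ± 81.7 TPM in ESC (n = 6). The difference was 2.17 ± 0.42 in log2(TPM + 1) (SE), with a limma adjusted p of 0.0875, and the ranges overlapped between 193.8 TPM in EGC and 213.7 TPM in ESC. Of the 4 genes that passed the filter on low values, 0 passed the threshold of 0.05 after Benjamini-Hochberg adjustment, against 0.0465% of 12909 genes tested, or 0.0232% in each direction (6 genes in all, with 1164 at an unadjusted p under 0.05). Dlk1 differed by 0.55 ± 0.28 (limma adjusted p = 0.555), Begain by 0.37 ± 0.16 (0.520) and Dio3 by 0.24 ± 0.24 (0.752). A 2-sided exact permutation test of single genes over 5005 arrangements gave unadjusted p = 0.0028 for Meg3, 0.00839 for Rtl1, 0.0268 for Begain, 0.0895 for Dlk1 and 0.354 for Dio3. With the number of X chromosomes in the header as a factor, the Meg3 difference was 1.69 ± 0.11 (limma adjusted p = 1.27e-06) and that of Dlk1 was 0.84 ± 0.15 (0.0449). With libraries of 1 label treated as correlated (estimated correlation 0.750), the adjusted p for Meg3 was 0.855. Of 14 tested fibroblast markers, which can come from the feeders, 1 was higher in EGC. With the mean log2(TPM + 1) of all 22 listed markers as a covariate the Meg3 difference was 2.07 ± 0.61 (0.999). That mean was 1.77 or above in every EGC library and 1.75 or below in every ESC library, so it moved with the groups compared.

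The labels were then compared in a model with 1 mean per header label. These comparisons share label groups with each other, so their values are given side by side. An exact permutation test could not reach 0.05 here, since its smallest 2-sided p is 0.1 for 3 against 3 libraries and 0.2 for 2 against 3.

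XX ESC differed from XY ESC in opposite directions for Meg3 and for Dlk1 and Dio3. Meg3 was lower in XX ESC, at 0.254 of the XY ESC mean, a log2 difference of -1.95 ± 0.10 (SE, limma adjusted p = 1.01e-08). Dlk1 was 2.90-fold higher, by 1.07 ± 0.21 (0.000889), and Dio3 was 3.31-fold higher, by 0.89 ± 0.13 (9.74e-05). Begain differed by 0.19 ± 0.15 (0.299), or by 0.35 (0.0466) without ESC 3. Rtl1, below the filter, lay on the side of Meg3, at 0.369 of the XY ESC mean with no overlap, and differed by -0.17 ± 0.04 (0.00965) when no filter was used. Of 4 genes tested, 2 were higher and 1 was lower, where 27.3% of 13879 genes were higher and 19.3% were lower. With quantile scaling the genome-wide split moved from 3786 higher and 2681 lower to 3065 and 3616. By absolute difference, 1.16% of the genes tested changed more than Meg3, 6.46% more than Dlk1 and 9.65% more than Dio3. Markers of several cell types also moved with this comparison, and their part in the result was not tested, apart from a fit that took the mean fibroblast marker level as covariate. In that fit Meg3 differed by -1.97 ± 0.10 (limma adjusted p = 3.40e-08), Dio3 by 0.88 ± 0.13 (0.000226), and Dlk1 stayed higher (0.00106). Of 17 tested fibroblast markers 5 were higher and 2 lower, with Col5a1 at 5.48 against 2.56 TPM and Acta2 at 2.69 against 18.5 TPM. Of 9 pluripotency markers 6 were higher and 1 lower, with Nanog at 924 against 453 TPM. Trophoblast markers gave 3 higher and 2 lower of 6, with Tfap2c at 62.9 against 43.0 TPM and Krt8 at 25.1 against 70.6 TPM. Of 4 primitive endoderm markers 1 was higher and 1 lower.

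XX and XY EGC of stage E11.5 also differed in opposite directions for Meg3 and Dlk1. Meg3 was lower in XX EGC, at 0.294 of the XY mean, a log2 difference of -1.76 ± 0.11 (SE, limma adjusted p = 1.04e-07). Dlk1 was 2.01-fold higher, by 0.84 ± 0.23 (0.00842). That call rested on EGC 7, without which the difference was 0.59 ± 0.28 (0.118). Dio3 was lower in XX EGC, at 0.480 of the XY mean, by -0.69 ± 0.14 (0.00163), and Begain differed by -0.22 ± 0.16 (0.281). Thus 1 gene was higher and 2 were lower of 4 tested, where 26.2% of all genes tested were higher and 23.4% were lower. Rtl1 had 0.519 of the XY mean, without overlap. Markers moved here too, and apart from the same covariate fit their part in the result was not tested. In that fit Meg3 differed by -1.78 ± 0.11 (limma adjusted p = 2.60e-07), Dlk1 by 0.87 ± 0.23 (0.00827) and Dio3 by -0.69 ± 0.15 (0.00247). Of 17 fibroblast markers 3 were higher and 1 lower, with S100a4 at 5.09 against 2.94 TPM and Fn1 at 117 against 193 TPM. Of 9 pluripotency markers 2 were higher and 1 lower, with Nanog at 855 against 505 TPM, and of 6 trophoblast markers 3 were higher and 2 lower, with Krt18 at 14.5 against 70.9 TPM. Of 4 primitive endoderm markers 0 were higher and 1 lower.

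The difference between the karyotypes was itself compared between E11.5 EGC and ESC. Dio3 was lower with XX in EGC and higher with XX in ESC, and this interaction was -1.57 ± 0.19 in log2(TPM + 1) (SE, limma adjusted p = 0.000596). It was larger than that of all but 0.742% of the genes tested. Dio3 was the 1 gene of 4 past the threshold, in a comparison where 6.08% of all genes were higher and 9.51% were lower (1128 genes higher and 1107 lower with quantile scaling, against 844 and 1320). For Meg3 the interaction was 0.20 ± 0.14 (0.357), with a 95% interval of -0.11 to 0.51. For Dlk1 it was -0.23 ± 0.31 (0.640), and without EGC 9 it was 0.022 (0.975). For Begain it was -0.41 ± 0.22 (0.206), or -0.57 (0.0475) without ESC 3.

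The ratio of Meg3 to Dlk1 within a library, a ratio of TPM values, summarises the opposite directions. It was 197 ± 55.4 in E11.5 XY EGC (SD, n = 3), 199 ± 41.3 in E12.5 XY EGC (n = 3), 181 in the XO library and 178 ± 75.1 in XY ESC (n = 3). It was 28.3 ± 7.51 in XX EGC (n = 2) and 13.8 ± 1.18 in XX ESC (n = 3). All 5 XX libraries lay at or below 33.6, and the other 10 at or above 119.6. This split restates the differences given above and adds no test of them. E11.5 XY EGC, E12.5 XY EGC and XY ESC overlapped in this ratio although their Meg3 levels did not. In XY ESC the ratio divides by low Dlk1 levels of 0.694 to 1.79 TPM and ran from 119.6 to 262.8. An overlap over so wide a range does not show that the ratio was equal. The ratio of Meg3 to Dio3 did not divide the labels in that way, at 249 in E11.5 XY EGC, 596 in E12.5 XY EGC, 348 in the XO library, 359 in XY ESC, 154 in XX EGC and 26.8 in XX ESC on average.

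**Figure D3:**
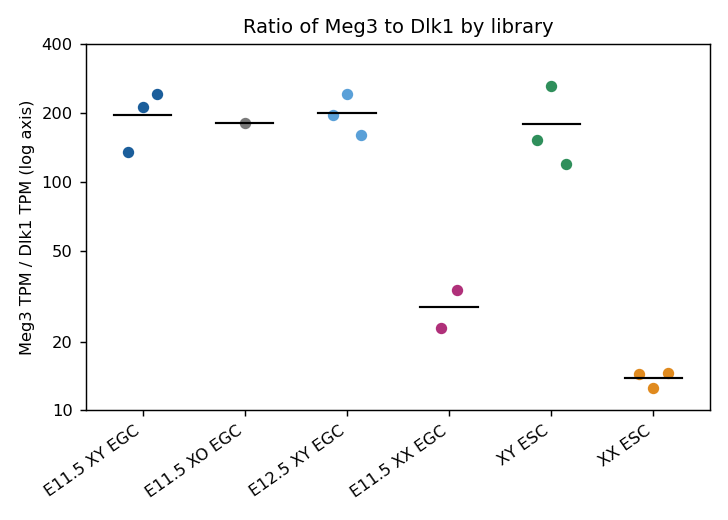
Ratio of Meg3 TPM to Dlk1 TPM on a log axis (vertical) for the 6 header labels (horizontal). Points are libraries and lines are means. XX libraries lie between 12.46 and 33.6, and all other libraries at or above 119.6.

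Between the stages, E12.5 XY EGC had lower levels than E11.5 XY EGC for 3 of 4 genes tested. Dio3 fell to 0.306 of the E11.5 mean, a log2 difference of -1.01 ± 0.13 (SE, limma adjusted p = 0.000152). Meg3 fell to 0.729 of it, by -0.45 ± 0.10 (0.00296), and Begain to 0.616, by -0.48 ± 0.15 (0.0198). The Begain call was lost without EGC 1 (0.0531), EGC 3 (0.0590) or EGC 5 (0.0868). Dlk1 differed by -0.37 ± 0.21 (0.172). None was higher, whereas 26.3% of all genes tested were higher and 11.4% were lower, a split that scaling moved from 3648 and 1578 genes to 2617 and 2557 with median-ratio scaling. The 3 genes kept their direction and call under both other scalings. In the same comparison 7 of 17 tested fibroblast markers were lower and 2 were higher, and their part in the result was not tested apart from the covariate fit, in which all 3 calls held.

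EGC were compared with ESC of the same karyotype last. E11.5 XY EGC exceeded XY ESC for all 4 genes tested. Meg3 was 3.36-fold higher, by 1.74 ± 0.10 in log2(TPM + 1) (SE, limma adjusted p = 1.97e-07), and Dio3 was 4.53-fold higher, by 1.21 ± 0.13 (5.93e-05). Dlk1 was 2.83-fold higher, by 1.02 ± 0.21 (0.00383), and Begain was 1.89-fold higher, by 0.62 ± 0.15 (0.00855). Of all genes tested 12.2% were higher and 13.4% were lower. Fibroblast markers moved with this comparison, with 10 of 17 tested higher and 2 lower. With the mean of all 22 listed markers as a covariate, Dlk1 differed by 0.83 ± 0.28 (0.0751) and was no longer past the threshold. Meg3 differed by 1.85 ± 0.13 (1.58e-05) in that fit.

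Against the same XY ESC, Meg3 alone of the 4 genes tested passed the threshold in E12.5 XY EGC. Meg3 was 2.45-fold higher, by 1.28 ± 0.10 (SE, limma adjusted p = 2.28e-05). Of all genes tested 3.19% were higher and 0.166% were lower, or 141 and 64 genes with median-ratio scaling against 443 and 23. Dlk1 was 1.98-fold higher with no overlap, by 0.65 ± 0.21 (0.0919), short of the threshold. Dio3 differed by 0.20 (0.397) and Begain by 0.14 (0.617). Rtl1, below the filter, was 2.27-fold higher with no overlap, and differed by 0.28 ± 0.04 (0.0192) when no filter was used. Here 0 of 17 fibroblast markers passed the threshold in either direction.

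XX EGC exceeded XX ESC in Meg3 and Dlk1. Meg3 was 3.88-fold higher, by 1.94 ± 0.11 (SE, limma adjusted p = 1.64e-06). Dlk1 was 1.96-fold higher, by 0.79 ± 0.23 (0.0402), a call near the threshold that was lost under 5 of the alternative settings and without any 1 of EGC 5, EGC 7, EGC 9 or ESC 1 to 4. Without EGC 7 the difference was 0.54 (0.317). Dio3 differed by -0.36 ± 0.14 (0.112) and Begain by 0.21 (0.419). Of all genes tested 4.09% were higher and 8.44% were lower, or 825 and 1012 genes with median-ratio scaling against 568 and 1172. Among fibroblast markers 6 of 17 were higher and 1 was lower. With the mean of all 22 listed markers as a covariate Meg3 differed by 2.05 ± 0.14 (4.84e-05) and Dlk1 by 0.61 ± 0.30 (0.318).

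**Figure D4:**
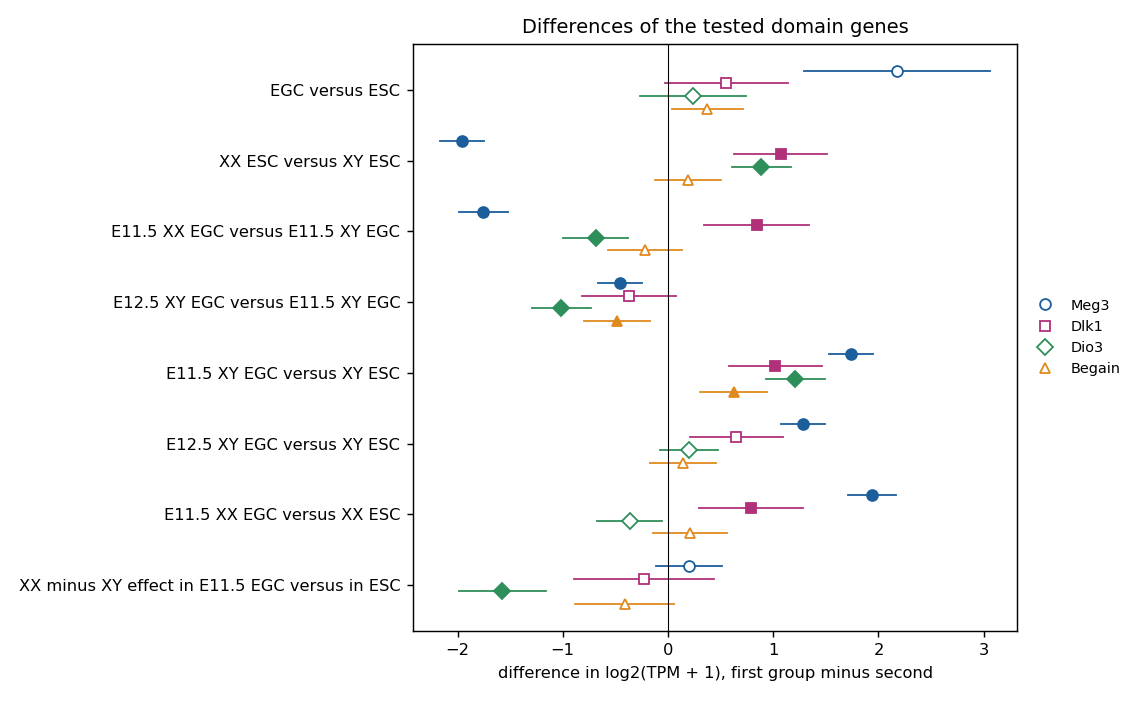
Difference in log2(TPM + 1), first group minus second (horizontal), of the 4 tested genes in 8 comparisons (vertical). Lines are unadjusted 95% intervals and filled symbols mark a limma adjusted p under 0.05. Meg3 is negative in both XX comparisons and positive in all comparisons of EGC with ESC, and Dio3 is positive for XX against XY ESC and negative for XX against XY EGC.

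Lines on feeders can carry fibroblast RNA, and mouse fibroblasts express imprinted genes. All 22 fibroblast markers had a row, and their summed level was 323 to 457 TPM in E11.5 XY EGC, 459 to 536 TPM in E12.5 XY EGC, 354 TPM in the XO library, 299.7 to 299.9 TPM in XX EGC, 363 to 412 TPM in XY ESC and 321 to 350 TPM in XX ESC. Most of the sum came from Fn1 and Vim, whose medians in E12.5 XY EGC were 301 and 119 TPM. The mean log2(TPM + 1) of the 22 markers, the covariate above, ranked the labels differently. It was 2.24 for E11.5 XY, 2.14 for XX, 1.97 for XO and 1.92 for E12.5 XY EGC, against 1.67 for XY and 1.58 for XX ESC. By that mean every EGC library lay above every ESC library. EGC 4 stood apart, with 6.48 TPM of Dcn against 0 to 0.146 TPM in the other libraries, 0.936 TPM of Lum against 0 to 0.0438 TPM, and 15.1 TPM of Col3a1. Col3a1, a fibrillar collagen, was at 1.21 to 2.14 TPM in the other E11.5 EGC libraries, 0.199 to 0.585 TPM in E12.5 XY EGC and 0.173 to 0.222 TPM in ESC. Col1a1, another fibrillar collagen, had 12.8 TPM in EGC 4, 2.51 to 6.72 TPM in the other EGC and 1.07 to 2.62 TPM in ESC. EGC 4 had a Meg3 level of 625.4 TPM, between those of the other libraries of its label, and the highest Dlk1 level of its label. Without EGC 4, Dlk1 differed from XY ESC by 0.86 ± 0.21 (limma adjusted p = 0.0178). The libraries left also had more Col3a1 than any ESC library. As given above, Dlk1 was not past the threshold there with the marker mean as covariate. Apart from that fit, the part of feeder RNA in this difference was not tested. In bulk RNA, fewer cells of a type and less RNA per cell cannot be told apart. Of 10 pluripotency markers, 9 reached 1 TPM, with a summed level of 7638 to 15124 TPM. Fut4, which encodes an enzyme that can make SSEA1, stayed under 1 TPM in every library. Its RNA level does not measure the antigen by which the cells were sorted. Genes listed as markers of other early cell types were detected too. Their summed level was 84.3 to 490.3 TPM over 8 trophoblast genes, highest in E12.5 XY EGC, and 11.2 to 25.7 TPM over 6 primitive endoderm genes. In E12.5 XY EGC most of the trophoblast sum came from Krt18, Krt8 and Tfap2c, with means of 188, 160 and 53.4 TPM. Of the 8 trophoblast genes, 2 stayed under 1 TPM in all libraries of that label, and 4 did so in E11.5 XY EGC. The part of all these markers in the differences of the domain was not tested.

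The XO library was set against the mean of E11.5 XY EGC to see whether the domain moved with its chromosome. The other chromosome 12 genes were higher by a median of 0.44 in log2(TPM + 1), a 1.36-fold ratio of TPM + 1, with 354 of 422 above 0. On the other autosomes the median was 0.01, with 5991 of 11722 above 0. By position the median was 0.40 among the proximal 141 of the chromosome's genes, 0.41 among the middle 141 and 0.50 among the distal 140, where the domain lies. Within the domain, Begain differed by 0.51 and Rtl1 by 0.22, while Dlk1 differed by 0.06, Meg3 by 0.01 and Dio3 by -0.33. Thus on this scale only Begain among the 5 genes was above the chromosome's median. Rtl1, at 0.497 TPM against a mean of 0.286 TPM in E11.5 XY EGC, lay under 1 TPM. There the added 1 shrinks differences, so Rtl1 cannot be ranked against that median. Meg3 lay between the lowest and highest E11.5 XY values. Leaving this library out, or subtracting each library's chromosome 12 deviation, changed no call of a domain gene. The Meg3 difference between EGC and ESC was 2.11 in both cases (limma adjusted p = 0.122 and 0.0875).

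**Figure D5:**
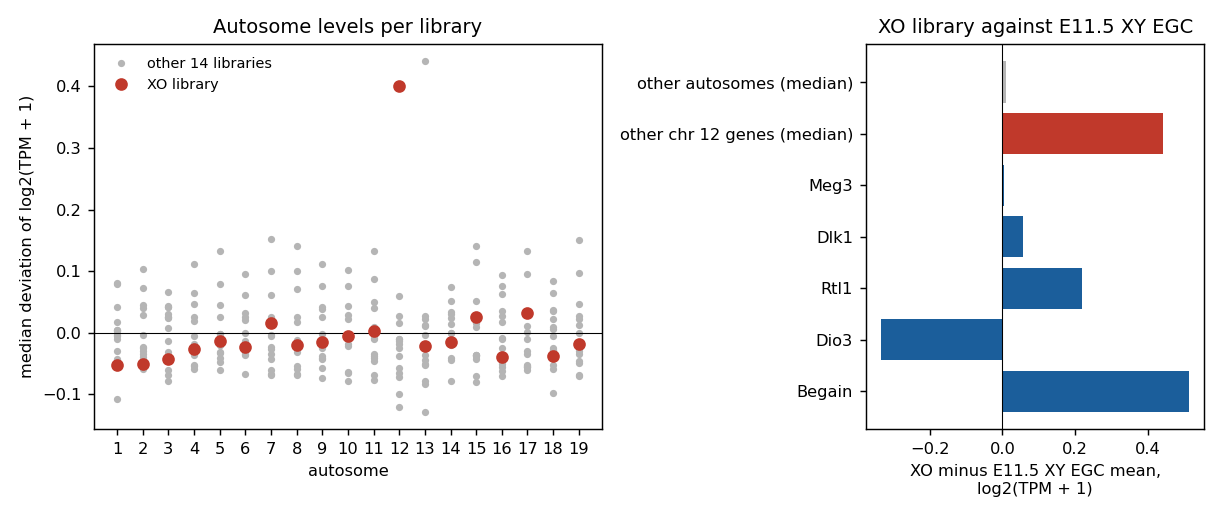
Left, median deviation of log2(TPM + 1) from the mean of all libraries (vertical) for each autosome (horizontal), with the XO library in red and the other 14 libraries in grey, where the high grey point on chromosome 13 is ESC 3. Right, log2(TPM + 1) of the XO library minus the E11.5 XY EGC mean for the median of each gene group and for the 5 domain genes. The chromosome 12 median is 0.44, with Begain at 0.51, Meg3 at 0.01 and Dio3 at -0.33.

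The nearest tested protein-coding genes outside the domain, 10 before Begain and 10 after Dio3, were counted beside the share of all genes tested. Between XX and XY ESC 8 of 20 were higher and 3 lower, within -0.35 to 0.56, where 27.3% and 19.3% of all genes were. Between XX and XY EGC 5 were higher and 3 lower, within -0.60 to 1.06 (26.2% and 23.4% of all genes). Between the XY EGC stages 7 were higher and 3 lower, within -0.52 to 0.89 (26.3% and 11.4%). E11.5 XY EGC against XY ESC gave 2 higher and 5 lower, within -0.85 to 0.50 (12.2% and 13.4%), and XX EGC against XX ESC gave 1 higher and 2 lower, within -0.99 to 0.49 (4.09% and 8.44%). In the interaction 3 were higher and 2 lower, within -0.62 to 0.87 (6.08% and 9.51%). Neither E12.5 XY EGC against XY ESC (0 of 20) nor EGC against ESC (0 of 19) gave a call. Flanking genes exceeded the size of the Meg3 difference in the interaction and between the XY EGC stages, and in none of the other 6 comparisons. Between the stages these were Ccdc85c (0.74), Ankrd9 (0.67), Tecpr2 (0.63), Dync1h1 and Ppp2r5c. Dync1h1, the heavy chain of cytoplasmic dynein, rose by 0.89 ± 0.13 (SE, limma adjusted p = 0.000285) and Ppp2r5c, a regulatory subunit of protein phosphatase 2A, fell by 0.52 ± 0.06 (0.000134).

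Regulators of imprinting were looked up as a list of 26 genes, all of them tested. In XX against XY ESC 8 were higher and 2 lower, where 27.3% and 19.3% of all genes were. Dnmt3l, the cofactor of de novo DNA methylation, rose from 151 to 318 TPM, and Dnmt3a, a de novo methyltransferase, fell from 27.4 to 16.98 TPM. In XX against XY EGC 7 were higher and 4 lower (26.2% and 23.4% of all genes), and there Dnmt3l rose from 164 to 360 TPM and Zfp57 from 182 to 355 TPM (limma adjusted p = 3.12e-05 and 0.00027). E12.5 against E11.5 XY EGC gave 9 higher and 2 lower (26.3% and 11.4%), with Dnmt3a at 33.5 against 16.7 TPM and Dnmt3b at 31.4 against 14.7 TPM. E11.5 XY EGC against XY ESC gave 1 higher and 5 lower (12.2% and 13.4%), XX EGC against XX ESC gave 0 and 3 (4.09% and 8.44%), and E12.5 XY EGC against XY ESC and EGC against ESC gave none. Tet1, which oxidises methylated cytosine, was among those lower in both E11.5 comparisons, at 38.6 against 59.1 TPM in XY and 37.6 against 69.1 TPM in XX cells. The median difference of the list ranged from -0.18 to 0.19 over the 8 comparisons, beside -0.05 to 0.10 for all genes tested.

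Imprinted genes elsewhere in the genome gave counts for both parental classes, of which part are given. In EGC against ESC, 1 of 15 tested maternally expressed genes was lower (Cdkn1c) and 0 were higher. Of 21 tested paternally expressed genes, 2 were higher (Mest and Snrpn) and 0 lower, where 0.0232% of all genes were called in each direction. With libraries of 1 label treated as correlated, 0 genes were called in that comparison. Of 15 tested maternally expressed genes, 3 were higher and 5 lower in XX than in XY ESC (27.3% and 19.3% of all genes), 0 and 5 in XX than in XY EGC (26.2% and 23.4%), and 0 and 6 in E11.5 XY EGC than in XY ESC (12.2% and 13.4%). Phlda2, a placental growth regulator expressed from the maternal copy like Meg3, fell from 81.6 to 10.8 TPM in XX against XY ESC and from 30.6 to 11.98 TPM in XX against XY EGC (limma adjusted p = 1.86e-09 and 5.65e-06). Unlike Meg3 it was lower in E11.5 XY EGC than in XY ESC, by -1.38 ± 0.12 (8.84e-06). Of 23 tested paternally expressed genes, 14 were higher and 4 lower in XX than in XY ESC, 10 and 5 in XX than in XY EGC, with the same shares of all genes, and 14 and 1 in E12.5 than in E11.5 XY EGC (26.3% and 11.4%). The paternally expressed gene Ndn, which restrains growth of neurons, rose from 9.27 to 30.6 TPM in XX against XY ESC. Others went against these examples there. The paternally expressed gene Nnat fell from 9.57 to 2.03 TPM, and the maternally expressed gene Igf2r rose from 20.1 to 26.9 TPM. In E12.5 XY EGC against XY ESC 13 paternally expressed genes were higher and 0 lower, with a median of 0.67 beside 0.08 for all genes, while 2 maternally expressed genes were higher and 5 lower (3.19% and 0.166% of all genes).

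Genes outside the domain with the pattern most like Meg3 were taken by the Pearson r of log2(TPM + 1) over the 15 libraries, among 12905 genes. They were AI428936 (0.96), Eno3, a muscle enolase (0.95), Ankrd16 (0.95), Ccnl2, a cyclin linked to splicing (0.94), and Zglp1, a germ cell transcription factor (0.93). Their own ranges were narrower. AI428936 averaged 37.2 TPM in E11.5 XY EGC and 15.5 TPM in XX ESC, and Zglp1 averaged 4.19 and 0.789 TPM. For Dlk1 the genes were 4930539E08Rik (0.93), Gm20394 (0.86), Emid2 (0.85), Atf5, a stress-response transcription factor (0.85), and Cops8, a subunit of the COP9 signalosome (0.85). Among the domain's own genes, r was -0.07 between Meg3 and Dlk1, 0.06 between Meg3 and Dio3, 0.51 between Dlk1 and Dio3 and 0.64 between Dio3 and Begain. All these values describe 15 libraries, several of them under the same label, which are not known to be independent.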

How the data were processed

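The authors deposited a table of TPM values for 15 libraries and 34372 genes. The submitters' processing notes name the aligner STAR 2.3.0, the counter HTSeq 0.6.0, edgeR 3.8.6, Picard 1.100 and SAMtools 0.1.18.0 with GRCm38 (mm10), and not how they were used. Blank header cells were given the nearest label to the left. Positions were matched for 30582 genes (89.0%), and 0 pairs of libraries were identical.

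Log2(TPM + 1) values were tested with limma 3.58.1 in R 4.3.3, 2-sided, with a mean-variance trend and Benjamini-Hochberg adjustment over all genes tested (threshold 0.05). EGC against ESC used genes with at least 1 TPM in 6 libraries. The header labels were fitted with 1 mean each (9 residual degrees of freedom) on genes with at least 1 TPM in 2 libraries. The XO library entered as its own label. On this scale differences of genes near 1 TPM are understated. The fit was tested on simulated data with independent libraries. Such data cannot show how it behaves where libraries of 1 label are correlated. Genes named were all domain genes, flanking genes, and list genes with the smallest p, from which examples were picked after their values were seen. The domain genes and lists were chosen with earlier results of these data known. Python 3.11.15 was used for descriptions. Pseudocounts, filters, scalings, covariates and left-out libraries were alternatives.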

Additional observations from a re-analysis of the deposited data

Results flagged for a closer look

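The difference in Dio3 between XX and XY cells had opposite signs in the 2 cell types. It was -0.69 in E11.5 EGC and 0.89 in ESC, and the difference between these effects, tested as an interaction, was -1.57 in log2(TPM + 1) (limma adjusted p = 0.000596). All 4 labels involved have low levels, from 0.590 to 2.67 TPM on average, and the value was between -1.70 and -1.48 when each library was left out in turn.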

How the results depend on the processing

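No paired analysis was possible because the labels carry no replicate numbers, and those used here only name the libraries. Over the 32 tested differences of single domain genes, settings other than leaving out a library gave 327 values with the same direction and call, 2 that gained a call and 6 that lost it. Leaving out libraries gave 466 with the same direction and call, 2 that gained a call, 11 that lost it and 1 reversed, the Dlk1 interaction, which ranged from -0.48 without EGC 7 to 0.022 without EGC 9 (limma adjusted p = 0.975 there). With karyotype as a factor 2 genes were higher in EGC than in ESC. A filter at 5 TPM left Dio3 and Begain untested, and also Dlk1 in EGC against ESC, where 6 libraries had to pass. Dlk1 reached 5 TPM only in EGC 7 and EGC 9 (8.58 and 5.77 TPM). It thus entered the other comparisons through the XX EGC label alone, and its calls under this filter add no support. With this filter 1 gene was higher in XX than in XY ESC and 1 lower in XX than in XY EGC. Between the XY EGC stages 1 was lower, 2 were higher in E11.5 XY EGC than in XY ESC, and 0 were lower in the interaction. Without a filter Rtl1 was tested as well and made 2 genes lower in XX than in XY ESC (-0.17, limma adjusted p = 0.00965), 1 higher in E12.5 than in E11.5 XY EGC (0.19, 0.00712) and 2 higher in E12.5 XY EGC than in XY ESC (0.28, 0.0192). For XX EGC against XX ESC 1 gene was higher with a pseudocount of 0.1 or 0.5, without a filter, with the fibroblast covariate and with only those 2 labels in the fit, where Dlk1 lost its call. Leaving out libraries gave 1 to 2 genes higher there, 0 to 1 higher in XX than in XY EGC, and 1 to 2 lower in the interaction. Over the same left-out libraries the Meg3 difference between EGC and ESC was 1.96 to 2.39 (limma adjusted p from 0.0512 to 0.263). Unknown depth, levels near 1 TPM for Dio3 and Begain and 2 XX EGC libraries limit these values.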
